A study of Mus musculus with 4 samples.

Results

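RNA polymerase II (Pol II) peaks marked the promoters of 653 of the 21840 annotated protein-coding genes (2.99%) in each young EC-K4KO library while no old WT Cre library had one there. A gene was counted where a peak overlapped the 1500 bp on either side of the same transcription start site (TSS) in both young libraries, and where no peak of either old library overlapped that window at any TSS of the gene. The 4 libraries are Pol II ChIP-seq of sorted brain endothelial cells (ECs), 2 from young EC-K4KO mice and 2 from old WT Cre mice. EC-K4KO mice carry a tamoxifen-inducible Cre driven by the VE-cadherin (Cdh5) promoter and floxed Klf4, so that Klf4 is deleted in ECs after tamoxifen. WT Cre mice carry the same Cre without floxed Klf4, and both are on a C57BL/6J background. Genotype and age differ together between the groups, so their parts in any difference cannot be told apart. The labels do not say whether a library came from 1 animal or from several. The peaks of all 4 libraries chose the 653 genes, so the genes were chosen by the called peaks themselves, and the presence or absence of a peak is a description that was not tested. Whatever the old libraries showed, both young libraries had a peak at the same TSS of 8.82% of all genes, both old libraries at 9.57%, and 60.0% of all genes had no promoter peak in either old library.

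Pol II transcribes protein-coding genes. At many active promoters it pauses shortly downstream of the TSS before it is released into the gene body, so that a ChIP-seq peak often lies close to the TSS. Promoters within CpG islands, where CG dinucleotides are frequent and mostly unmethylated, drive most broadly expressed genes, whereas many tissue-specific genes have CpG-poor promoters. KLF4 is a zinc-finger transcription factor that binds GC-rich and CACCC-type sites and is known in ECs for anti-inflammatory and barrier functions.

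The places where both young libraries peaked together at a TSS are shown first. Of the 653 genes, 168 (25.7%) had both young summits within 100 bp of each other and within 500 bp of the TSS. The 150 bases before the TSS follow for 9 of the 10 such genes ranked highest by the smaller of their 2 young fold enrichments. The tenth, Fcho2, is left out because its stretch lies in an annotated UTR. Sequences are from the GRCm38.p6 (mm10) assembly of RefSeq, read 5′ to 3′ along the strand of the gene, and capitals mark the letters of a motif that was searched (described with the motif counts).
Birc2 (chr9:7837065-7837214, minus strand): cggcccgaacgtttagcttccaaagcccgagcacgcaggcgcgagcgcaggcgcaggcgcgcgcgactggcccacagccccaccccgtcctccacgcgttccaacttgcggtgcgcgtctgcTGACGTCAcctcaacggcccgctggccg
Zc3h15 (chr2:83644285-83644434, plus strand): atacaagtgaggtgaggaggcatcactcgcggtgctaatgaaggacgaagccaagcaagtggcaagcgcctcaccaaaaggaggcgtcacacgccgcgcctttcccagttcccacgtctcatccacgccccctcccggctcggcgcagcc
Mup17 (chr4:61595872-61596021, minus strand): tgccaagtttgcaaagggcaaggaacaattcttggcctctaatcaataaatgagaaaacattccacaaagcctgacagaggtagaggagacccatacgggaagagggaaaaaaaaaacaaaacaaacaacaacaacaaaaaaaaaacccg
Ankrd37 (chr8:45999868-46000017, minus strand): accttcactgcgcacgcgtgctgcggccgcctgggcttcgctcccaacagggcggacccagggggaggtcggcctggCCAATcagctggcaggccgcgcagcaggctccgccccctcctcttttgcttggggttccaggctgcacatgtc
Zfp882 (chr8:71908458-71908607, plus strand): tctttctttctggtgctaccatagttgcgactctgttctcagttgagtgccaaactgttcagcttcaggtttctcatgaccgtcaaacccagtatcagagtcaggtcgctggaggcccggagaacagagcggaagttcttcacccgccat
Pnrc1 (chr4:33248511-33248660, minus strand): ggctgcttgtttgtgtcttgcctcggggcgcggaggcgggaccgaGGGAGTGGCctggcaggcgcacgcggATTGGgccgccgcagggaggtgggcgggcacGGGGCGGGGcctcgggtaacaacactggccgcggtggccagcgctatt
Gmcl1 (chr6:86733384-86733533, minus strand): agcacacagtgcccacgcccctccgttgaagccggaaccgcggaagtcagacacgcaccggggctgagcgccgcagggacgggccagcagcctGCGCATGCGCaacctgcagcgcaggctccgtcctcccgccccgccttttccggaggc
P4ha1 (chr10:59323146-59323295, plus strand): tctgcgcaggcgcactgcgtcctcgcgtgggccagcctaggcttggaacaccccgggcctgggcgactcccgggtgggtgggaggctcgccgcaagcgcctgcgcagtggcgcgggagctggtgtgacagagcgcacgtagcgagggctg
Utp3 (chr5:88554312-88554461, plus strand): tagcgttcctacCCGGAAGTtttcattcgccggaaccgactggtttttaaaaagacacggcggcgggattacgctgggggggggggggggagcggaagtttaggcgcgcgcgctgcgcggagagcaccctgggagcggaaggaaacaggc
The GC content of these stretches ran from 39.3% at Mup17 to 73.3% at P4ha1 and Pnrc1. The CRE letters stand in Birc2, a CCAAT box in Ankrd37, KLF, Sp and CCAAT letters in Pnrc1, the NRF1 letters in Gmcl1 and the ETS letters in Utp3, while Zc3h15, Mup17, Zfp882 and P4ha1 hold none of the 9 motifs in this stretch.

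The lists differ in length, and the young EC-K4KO replicate 2 list is the longest. The authors' peak lists held 78851 and 39674 peaks for old WT Cre replicates 1 and 2 and 35638 and 235591 peaks for young EC-K4KO replicates 1 and 2, from 65734178, 27455452, 35227929 and 22705175 fragments. A promoter peak was present at 25.6% and 24.5% of protein-coding genes in the old libraries, at 10.7% in young replicate 1 and at 67.6% in young replicate 2. Of 12 EC marker genes, 4 and 6 had a promoter peak in the old libraries, 0 in young replicate 1 and 8 in young replicate 2. None of the 50 marker genes on the 7 lists of ECs, pericytes and smooth muscle, microglia, neutrophils, astrocytes, oligodendrocytes and neurons was among the 653. The share of all genes was 2.99%, at which lists of this size would hold few or none.

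The length of the young replicate 2 list bears on the match between the young libraries. Among the 13110 genes free of promoter peaks in both old libraries, young replicate 2 had a promoter peak at 683 of the 887 genes where young replicate 1 had one, or 77.0% (95% exact interval 74.1 to 79.7%). It also had one at 6673 of the 12223 genes where young replicate 1 had none, or 54.6% (53.7 to 55.5%). At CpG-rich promoters the shares were 91.8% (88.7 to 94.2%; 380 of 414 genes) and 78% (76.7 to 79.3%; 3097 of 3970 genes), and at other promoters 64.1% (59.6 to 68.4%) and 43.3% (42.3 to 44.4%). These shares use the same peaks as the rule and are a description. These intervals cover counting error over genes only, and genes are not independent replicates. With the young replicate 2 list limited to its 35638 leading peaks by q, 291 of the 653 genes remained. With all 4 lists limited to that length, 417 genes met the rule, of which 291 were among the 653, and 361 genes had promoter peaks in both old libraries and neither young library. With the lists as deposited that count was 169 genes (0.774%). With the young replicate 2 list alone shortened, that count was 843 genes, above the 291.

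**Figure D1:**
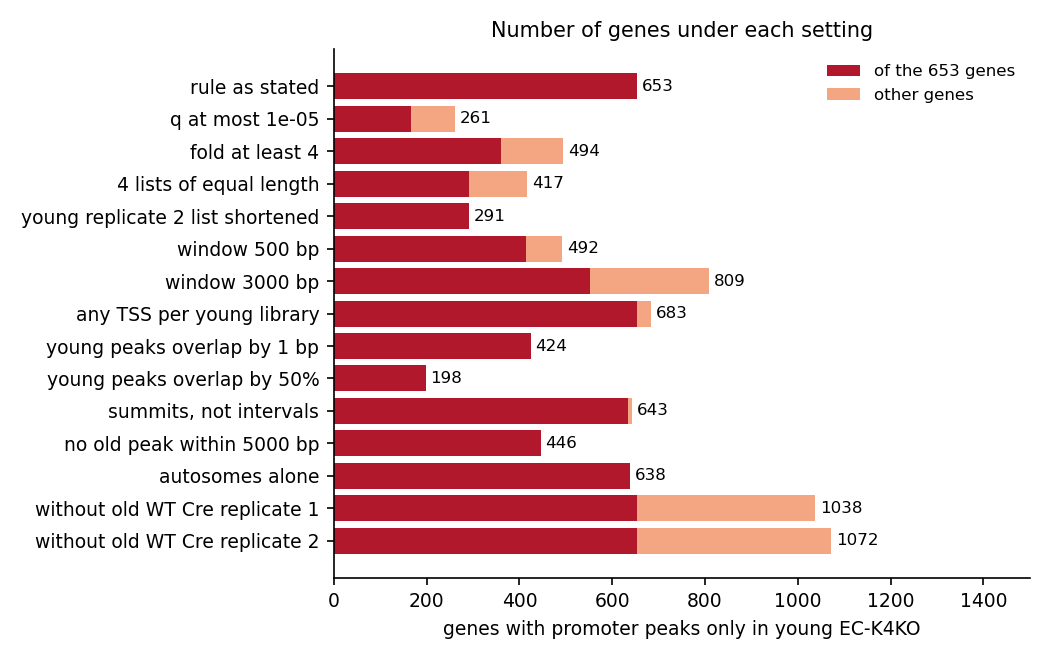
Number of protein-coding genes with promoter peaks only in young EC-K4KO (horizontal axis, genes) under the stated rule and under other thresholds, list lengths, windows, matching rules and sets of libraries (1 bar each); dark red parts are genes among the 653, pale parts are other genes. Shortening the young replicate 2 list left 291 genes, and leaving out an old library raised the number to 1038 or 1072.

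Klf4, the targeted gene, was among the 653 genes (ENSMUSG00000003032.8, chromosome 4, 55527143 to 55532466, minus strand, 1 TSS). Its young replicate 1 summit lay 995 bp upstream of the TSS, outside coding transcripts, with a fold enrichment of 4.20 and a pileup of 15 fragments. Its young replicate 2 summit lay 1198 bp downstream, in an intron, with a fold enrichment of 4.17 and a pileup of 20 fragments. The 2 summits were thus 2193 bp apart and the peaks did not overlap. Old replicate 2 had no peak within 17281 bp of the TSS. Old replicate 1 had a peak in a coding exon of Klf4 with its near edge 1852 bp from the TSS, just outside the window, and with a summit 1908 bp downstream. Young replicate 2 had a further peak there, with a summit 1909 bp downstream and a fold enrichment of 5.67, and another in a coding exon with a summit 4229 bp downstream, a fold enrichment of 4.43 and a pileup of 17 fragments. Peaks were thus called in coding exons of the targeted gene in young EC-K4KO replicate 2. With a window of 3000 bp, Klf4 had peaks in 3 of the 4 libraries and left the group. The extent of the deletion was not tested.
The 150 bases around the young replicate 1 summit upstream of Klf4 hold none of the searched motifs and have 56.7% GC:
Klf4 (chr4:55533386-55533535, minus strand): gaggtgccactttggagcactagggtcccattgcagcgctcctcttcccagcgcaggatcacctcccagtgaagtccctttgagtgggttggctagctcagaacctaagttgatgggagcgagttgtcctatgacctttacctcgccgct

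Peaks of the 653 genes were low, as were those of all genes with a promoter peak in each young library. Fold enrichment is the authors' value of a peak over the local background of its own library. It carries no replicate error and is not scaled between libraries, so no difference between libraries is read from it. For the pair of young peaks with the closest summits, it ran from 2.38 to 25.3 with a median of 4.14 in young replicate 1 and from 2.77 to 18.4 with a median of 5.90 in young replicate 2. The median over all genes with a promoter peak in the same library was 4.14 in replicate 1 and 5.49 in replicate 2. The median pileup was 14 fragments in replicate 1, where the lowest pileup of any peak in the list was 9, and 17 fragments in replicate 2, where it was 7. Over all genes with a promoter peak in the same library the median pileup was 14 fragments in replicate 1 and 18 in replicate 2. Taking for each gene the pair of young peaks with the closest summits, 188 of the 653 (28.8%) had q of at most 1e-05 in replicate 1, 538 (82.4%) in replicate 2 and 153 (23.4%) in both. In the same pairs a fold enrichment of at least 4 in both was found at 343 genes (52.5%). With any peaks in the window, 167 and 361 of the genes met the rule at these thresholds.

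**Figure D2:**
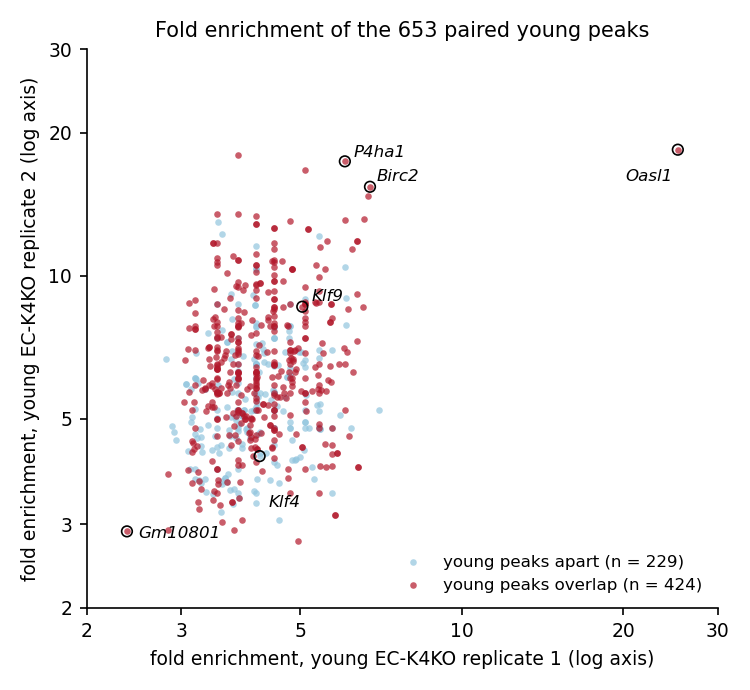
Fold enrichment of the paired young peaks of the 653 genes in young EC-K4KO replicate 1 (horizontal, log axis) and replicate 2 (vertical, log axis), 1 point per gene, with genes whose young peaks overlapped in red and those apart in light blue. Each axis is relative to the background of its own library; Oasl1 stands apart with 25.3 and 18.4, and Klf4 lies among the other genes with 4.20 and 4.17.

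Summits gathered at the TSS, and in young replicate 2 less closely than at genes with promoter peaks in all 4 libraries. In young replicate 1, 425 of the 653 genes (65.1%, 95% exact interval 61.3 to 68.7%) had a summit within 500 bp of a TSS, against 63.5% (61.6 to 65.5%) of all 2329 genes with a promoter peak in that library and 66.6% (62.0 to 71.0%) of the 446 genes with promoter peaks in all 4 libraries (at the same TSS within each group). The median distance was 270 bp, against 306 and 300 bp. In young replicate 2, 513 genes (78.6%, 75.2 to 81.6%) had a summit within 500 bp, against 77.3% (76.6 to 78%) of all 14756 genes with a promoter peak and 87.4% (84.0 to 90.4%) of the genes with peaks in all 4. There 50 of the 653 genes (7.66%) had their nearest summit more than 1000 bp from a TSS, against 1.79% of the genes with peaks in all 4 and 8.98% of all genes with a promoter peak in that library. Summits leaned into the gene: 54.5% lay downstream of the nearest TSS in replicate 1 and 58.8% in replicate 2, against 56.7% and 59.9% at the genes with peaks in all 4. Over all genes with a promoter peak in the same library these shares were higher, at 56.3% and 61.9%. In replicate 1, 207 summits (31.7%) lay in introns, 132 (20.2%) in UTR exons, 113 (17.3%) in coding exons and 201 (30.8%) outside coding transcripts. In replicate 2 these places held 170, 168, 119 and 196 summits in the same order.

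**Figure D3:**
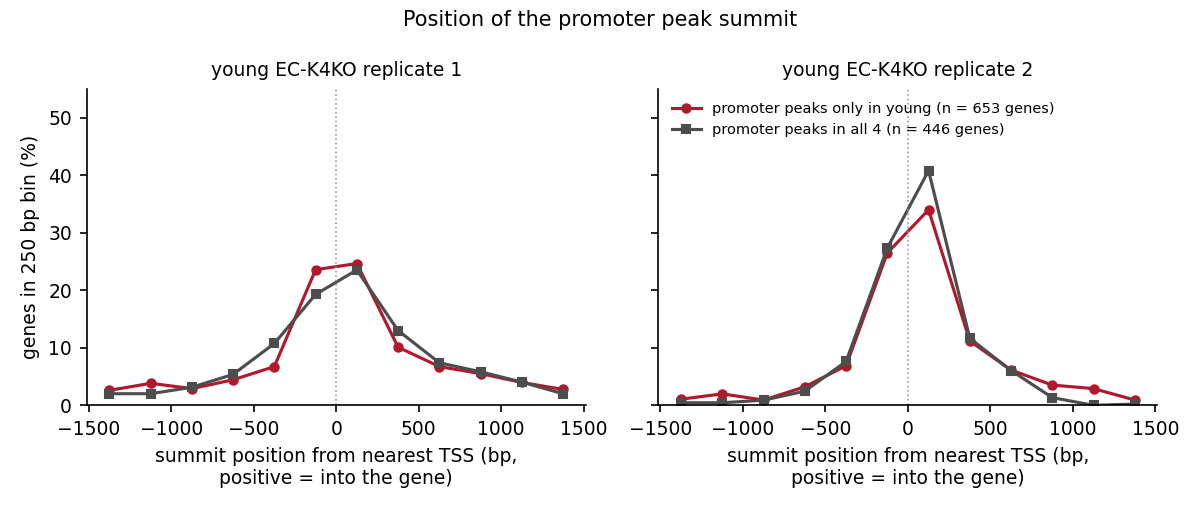
Position of the promoter peak summit nearest to a TSS (horizontal, bp, positive into the gene) against the share of genes in each 250 bp bin (vertical, %), for the 653 genes in red and the 446 genes with promoter peaks in all 4 libraries in grey, in each young library. Both sets are highest in the bins on either side of the TSS, with 24.7% and 34.0% of the 653 genes in the first 250 bp downstream in replicates 1 and 2.

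The young peaks often did not mark the same place. Any young peaks in the window overlapped by at least 1 bp at 424 of the 653 genes (64.9%, 61.1 to 68.6%), against 336 of the 446 genes with peaks in all 4 libraries (75.3%, 71.1 to 79.3%). The median distance between the paired summits was 197 bp, against 172.5 bp, and at 66 genes (10.1%) it was over 1000 bp, against 6.95%. At the 1274 genes with peaks in both young libraries and at least 1 old library, the young peaks overlapped at 71.2% (68.6 to 73.7%). Their median summit distance was 176.5 bp. Overlap by at least 50% of each peak held at 198 of the 653 genes. At CpG-rich promoters 277 of 373 genes (74.3%, 69.5 to 78.6%) had overlapping young peaks with a median summit distance of 146 bp, and at other promoters 147 of 280 (52.5%, 46.5 to 58.5%) with a median of 282 bp. With a 3000 bp window the overlap share was 51.9%, and with a 500 bp window 78.7%.

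Promoters of the 653 genes were more often CpG-rich than those of all genes. In the window from 250 bases before to 50 after the most upstream TSS, 373 genes (57.1%, 53.2 to 61.0%) had at least 50% GC and an observed over expected CpG ratio of at least 0.6, against 43.4% (42.7 to 44.0%) of all protein-coding genes. The share was 56.0% (53.9 to 58.0%) among all genes with a promoter peak in young replicate 1 and 65.7% (61.1 to 70.1%) among the genes with peaks in all 4. Of the CpG-rich genes of the annotation, 3.94% were among the 653, against 2.26% of the others. Among the 168 genes with aligned summits 116 (69.0%, 61.5 to 75.9%) were CpG-rich, against 53.0% (48.4 to 57.5%) of the other 485. The shortened young replicate 2 list raised the share to 72.2%, leaving out old replicate 2 gave 63.2%, and leaving out young replicate 1 or 2 gave 47.3 or 46.7%. The median gene length was 22291 bp, against 17373.5 bp for all genes and 35282 bp for genes with peaks in all 4, and 47.0% of the genes had a single TSS, against 48.7% and 38.1%. Peaks of at least 50% repeat-masked bases were found at 3.98% of the genes in replicate 1 and 2.14% in replicate 2.

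Letters of known motifs were counted with the promoter class in view. Each motif was searched on both strands in the same 300 bases, and matches of different motifs could overlap. The ETS letters ACTTCCGG stood in 7.04% of the 653 promoters (95% exact interval 5.20 to 9.28%) and 4.93% of all promoters, and at CpG-rich promoters in 11.5% (8.47 to 15.2%) and 8.90%. The KLF letters GGGNGTGGC stood in 7.50% (5.60 to 9.80%) and 6.84%, and at CpG-rich promoters in 9.65% and 9.82%. The Sp letters GGGGCGGGG stood in 18.8% (15.9 to 22.1%) and 15.3%, and at CpG-rich promoters in 28.7% and 28.1%. The NRF1 letters GCGCATGC stood in 5.05% and 3.80%, the CRE letters TGACGTCA in 2.14% and 2.50%, the AP-1 letters TGANTCA in 5.36% and 6.69%, CCAAT in 36.1% and 38.9% and the E-box CACGTG in 7.50% and 7.77%. At CpG-rich promoters the AP-1 letters stood in 4.29% (2.47 to 6.87%) and 3.23%, and at the other promoters in 6.79% (4.13 to 10.4%) and 9.35%. The TATA box letters TATAAA stood in 7.81% and 12.5%, and at promoters that were not CpG-rich in 12.9% and 18.4%. Within the CpG-rich class, the KLF and Sp shares of the 653 genes and of all genes differed by less than 1 percentage point.

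The genes with the highest fold enrichments were of unlike function. Oasl1, an interferon-inducible oligoadenylate synthetase-like gene, had fold enrichments of 25.3 and 18.4 and pileups of 198 and 75 fragments in young replicates 1 and 2, with summits 743 and 742 bp upstream of its TSS. Its nearest old peaks lay 9575 and 39223 bp away. The next highest value in replicate 1 was 7.01, at Clec4e. The peak is repeat-masked over 77.6% of its bases, and 24 of its 161 bases, in capitals, match a stretch of the 6 peaks with pileups over 1000 at Gm10801 on chromosome 2:
Oasl1 (chr5:114922448-114922608, plus strand): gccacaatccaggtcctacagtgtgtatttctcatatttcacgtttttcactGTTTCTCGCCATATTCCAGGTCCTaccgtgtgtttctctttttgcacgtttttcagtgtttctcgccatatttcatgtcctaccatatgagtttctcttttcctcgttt
Among the 645 genes searched, leaving out mitochondrial DNA and Gm10801 itself, no other had a run of 20 bases in its paired young peaks shared with those peaks. Gm10801, a predicted gene, had pileups of 69472 and 27457 fragments with fold enrichments of 2.38 and 2.9, both summits 93 bp downstream of the TSS. Its nearest old peaks, 4316 and 4315 bp away, had pileups of 9576110 and 4201070 fragments. The part of the shared sequence in the Oasl1 values was not tested.

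The genes were ranked by the smaller of the 2 young fold enrichments, a value that both libraries reached, which was that of replicate 1 at 567 of the 653 genes (86.8%), so the order is mostly that of replicate 1. By this rank, Oasl1 was followed by Birc2, an inhibitor of apoptosis that acts in NF-kB signalling, with fold enrichments of 6.75 and 15.4 and summits 56 and 87 bp upstream of the TSS. The nearest old peaks lay 6465 and 12872 bp away. Zc3h15, a zinc-finger protein gene, followed with 6.69 and 14.8 and summits 23 and 53 bp upstream, and BC005537 with 6.57 and 13.2 and summits 541 and 546 bp upstream. Mup17, which encodes a major urinary protein made in the liver and is one of many near-identical copies, had 6.54 and 8.60. Ankrd37, a gene known to be induced by hypoxia, and its neighbour Lrp2bp on the other strand shared a peak pair with 6.37 and 11.8. Raver2, Scaf8 and Zfp882 completed the 10 with 6.37 and 9.14, 6.37 and 7.29, and 6.27 and 6.26. In the aligned group, P4ha1, a subunit of the collagen prolyl hydroxylase, had 6.06 and 17.4 with summits 5 bp downstream and 52 bp upstream of the TSS. Utp3 and Gmcl1 had 6.06 and 6.52, and 6.11 and 6.93, Pnrc1 had 6.13 and 8.51, and Fcho2 had 6.24 and 11.4.

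KLF and Sp factors, zinc-finger proteins that bind GC-rich sites, were the gene list with the highest share. Of 26, 5 were among the 653 genes (19.2%, against 2.99% of all genes), while 5 and 7 had a promoter peak in the old libraries, 5 in young replicate 1 and 24 in young replicate 2. Klf9 had fold enrichments of 5.04 and 8.61, summits 317 and 252 bp upstream of the TSS and no old peak within 6896 bp. Klf11 had 3.69 and 5.99 with summits 270 and 221 bp upstream and an old replicate 1 peak 2316 bp away. Klf12 had 3.51 and 6.37 with summits 809 and 1300 bp upstream and an old replicate 1 peak 2892 bp away. Sp5 had 3.16 and 4.44 with summits 170 and 460 bp upstream and an old replicate 2 peak 1766 bp away. The share rests on the settings: Klf9 alone of the 5 kept peaks in both young libraries at q of at most 1e-05, where the others had one in young replicate 2 only, and Klf9 alone stayed free of old peaks with a window of 3000 bp. With lists of equal length 4 of the 5 met the rule, Klf4 not among them. Every KLF or Sp gene with a young replicate 1 peak was among the 653. The list includes Klf4 itself, and it was drawn up with earlier results of these data known.

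Genes of inflammation and interferon signalling were also present. Of 35 NF-kB and inflammation genes 4 were among the 653 (11.4%, against 2.99% of all genes), 2 of them with both young peaks at q of at most 1e-05, where 261 of all 21840 genes met the rule. Tnfaip3, which restrains NF-kB signalling, had 5.49 and 7.21 with summits 89 and 22 bp upstream. Irak1, an interleukin receptor kinase, had 5.42 and 5.20 with summits in coding exons and young peaks that did not overlap. Ripk1, a kinase of death receptor signalling, had 4.78 and 6.96 with summits 113 and 90 bp upstream. Nfkb2, a subunit of NF-kB, had 3.26 and 3.56. With lists of equal length, Tnfaip3 and Nfkb2 met the rule, while Irak1 and Ripk1 had a peak in young replicate 1 only. Of 32 interferon response genes 3 were present (9.38%, against the same 2.99%). None of the 3 kept both young peaks at q of at most 1e-05, and 1 met the rule with lists of equal length. Among the 3 were Stat2, a transcription factor of the interferon response, with 4.16 and 4.32, and Ifnar2, a receptor subunit, with 3.71 and 5.80. The Stat2 summits lay 792 and 1041 bp upstream of its TSS, in coding exons within the upstream neighbour Apof, which had the same peaks.

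Of 50 genes of DNA damage sensing and repair 5 were among the 653 (10%, against 2.99% of all genes), of which 2, Rad50 and Msh3, kept both young peaks at q of at most 1e-05, and Rad50 had an old replicate 1 peak 1874 bp away. Rad50, a subunit of the complex that senses double-strand breaks, had 5.39 and 6.17, Msh3, a mismatch repair factor, had 4.82 and 10.3 with summits 54 and 55 bp downstream of the TSS, and Palb2, a partner of Brca2, had 4.46 and 8.93. Xrcc5 and Xrcc6, both subunits of the Ku complex, had 4.46 and 4.79, and 3.72 and 7.54. Of 34 senescence and cell cycle arrest genes 2 were among them (5.88%): Ccna2 (cyclin A2) with 4.14 and 6.04 and Cdk2, its partner kinase, with 3.74 and 5.69. Neither kept both young peaks at q of at most 1e-05 or with lists of equal length. Of 28 genes of the integrated stress and unfolded protein responses the 2 were Pdia3, with 3.83 and 6.25, and Eif2s1, with 3.82 and 6.28, and neither kept both young peaks at q of at most 1e-05. Of 78 genes of Pol II, Mediator and general factors 4 were among them (5.13%). None of the 4 kept both young peaks at q of at most 1e-05, and Gtf2a1 and Polr2a had an old peak within 3000 bp. Gtf2a1 had 4.70 and 5.52, Taf12 4.36 and 8.07, Med13 3.82 and 18, and Polr2a, the largest subunit of Pol II, 3.65 and 3.67. Heat shock genes gave 1 of 25, the chaperone Hsp90ab1, with 4.65 and 8.60 and summits 91 and 74 bp upstream.

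Lists of EC functions lay on both sides of the share of all genes, each with 0 to 2 genes among the 653. Of 21 tight junction genes 2 were among the 653 (9.52%): Pard3, a polarity protein, with 3.82 and 8.17, and F11r, a junctional adhesion molecule, with 3.32 and 3.74 and young peaks that did not overlap. At q of at most 1e-05 neither kept both young peaks. Aplnr, the apelin receptor, was 1 of 20 genes of VEGF, angiopoietin and apelin signalling and had 4.06 and 4.99. Tfpi, an inhibitor of coagulation, was 1 of 23 genes of haemostasis and vascular tone and had 3.93 and 8.40. Smad1 and Tgfb1 were 2 of 34 TGF-beta and BMP genes, with 5.58 and 5.72, and 3.23 and 3.35. Fosb was 1 of 25 immediate early genes, with 3.05 and 6.66. Aplnr, Tfpi, Fosb and Tgfb1 did not keep both young peaks at q of at most 1e-05, and Tgfb1 had an old replicate 2 peak within 3000 bp. With lists of equal length, Aplnr, Smad1 and Tgfb1 did not meet the rule. No adherens junction (0 of 13), blood-brain barrier transport (0 of 29), leukocyte adhesion (0 of 19), antioxidant (0 of 25), Wnt (0 of 37), glycolysis and hypoxia (0 of 27) or ETS factor gene (0 of 26) was among them. At the 2.99% share of all genes, each of these lists would hold few or none. The ribosomal protein genes (2 of 62) and the histone-modifying enzymes (2 of 63) lay near the share of all genes, and the nuclear-encoded respiratory chain (1 of 59) and extracellular matrix genes (1 of 45) below it.
Further lists gave 3 of 46 ubiquitin ligases and deubiquitinases, 2 of 37 genes of autophagy and the lysosome, 2 of 50 synaptic genes and 1 of 25 endothelial SOX, FOX, GATA and related regulators. Over all 37 lists, 49 of 1090 genes (4.50%) were among the 653, and 14 lists had none.

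**Figure D4:**
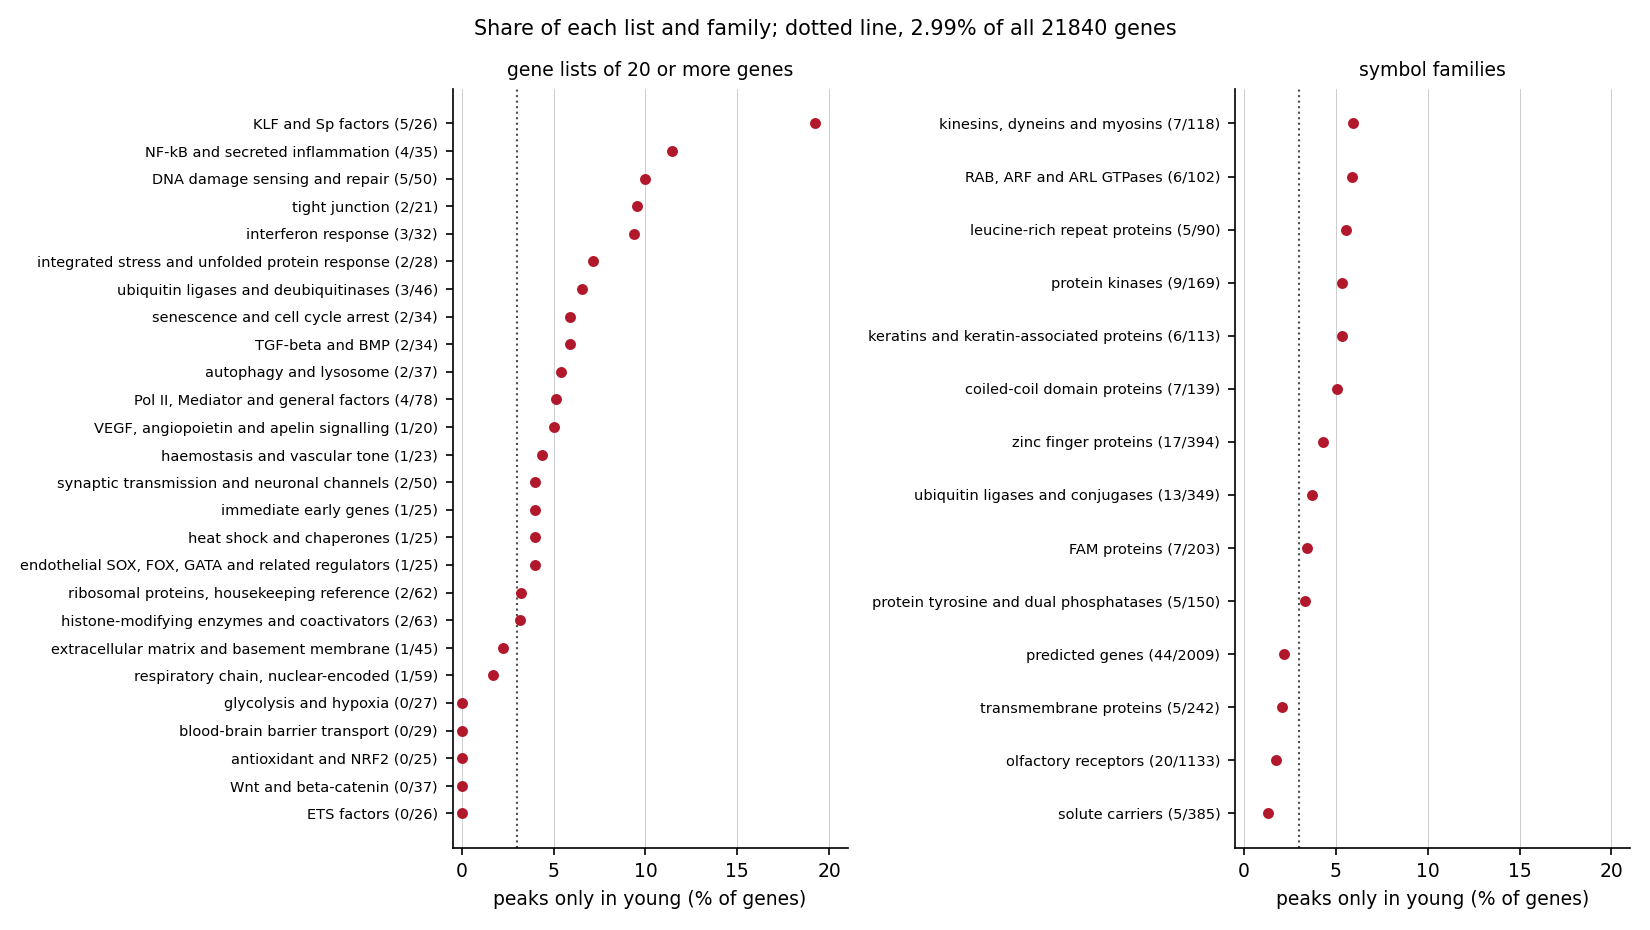
Share of each gene list (left, lists of 20 or more genes described in the text) and of each symbol family with 5 or more of the 653 genes (right) that had promoter peaks only in young EC-K4KO (horizontal, % of annotated genes; counts in parentheses); the dotted line is 2.99%, the share of all genes. KLF and Sp factors stand highest with 5 of 26 and solute carriers lowest of the families with 5 of 385.

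Families were drawn up from gene symbols alone. Of 50 symbol families 14 had 5 or more genes among the 653, 10 of them at a share above that of all genes. Kinesins, dyneins and myosins (symbols starting with Kif, Dync or Myo, which also take in Myocd and Myoz2) had 7 of 118 (5.93%), RAB, ARF and ARL GTPases of vesicle traffic 6 of 102 (5.88%), leucine-rich repeat proteins 5 of 90 (5.56%), protein kinases 9 of 169 (5.33%), keratins and keratin-associated proteins 6 of 113 (5.31%), coiled-coil proteins 7 of 139 (5.04%) and Zfp zinc-finger proteins 17 of 394 (4.31%). Ubiquitin ligases and conjugases (13 of 349), FAM proteins (7 of 203) and phosphatases (5 of 150) lay between 3.33 and 3.72%. Predicted genes (44 of 2009, 2.19%), transmembrane proteins (5 of 242), olfactory receptors (20 of 1133, 1.77%) and solute carriers (5 of 385, 1.30%) lay below the share of all genes.
Promoters of the kinase symbols were CpG-rich at 8 of 9, with overlapping young peaks at 8 of 9. Mapk1ip1l, which is not itself a kinase, had 5.10 and 7.40, Cdk11b 4.78 and 8.73, and Mapk14, the p38 kinase, 4.65 and 9.74 with summits 134 and 125 bp upstream and an old replicate 2 peak 1563 bp from a TSS. None of the 20 olfactory receptor promoters was CpG-rich, and the young peaks overlapped at 6 of the 20. The olfactory receptors Olfr318, Olfr1513 and Olfr1350 had 5.10 and 5.66, 5.02 and 6.92, and 5.42 and 4.80, with paired summits 1002, 287 and 1570 bp apart. These receptors are known from the olfactory epithelium. Olfactory receptor genes had promoter peaks at 66 of 1133 genes in young replicate 1 and at 282 in young replicate 2, and at 81 and 31 in old replicates 1 and 2. The keratin-associated gene Krtap24-1 had 5.42 and 5.66 with summits in a coding exon. Zfp882 and Zfp119a led the zinc-finger genes with 6.27 and 6.26, and 6.06 and 13.1.

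The genes were spread over the autosomes, with 2.00% of the genes of chromosome 9 and 4.83% of those of chromosome 12 as the lowest and highest shares. Chromosome X gave 8 of 948 genes (0.844%). Promoter peaks were present at 4.54% and 3.59% of its genes in the old libraries, at 1.27% in young replicate 1 and at 56.6% in young replicate 2. Mitochondrial DNA gave 7 of 13 genes. The old lists hold no peak on mitochondrial DNA, and the young lists hold 7 and 8. These genes, mt-Co1, mt-Co2, mt-Cytb, mt-Nd1, mt-Nd2, mt-Nd5 and mt-Nd6, share 4 pairs of peaks, since the molecule is small against the window. Mitochondrial genes are not transcribed by Pol II. Without them and Gm10801 the group numbered 645 genes with a CpG-rich share of 57.8%.

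Some neighbours entered together, and TSSs that lie close share part of their windows. No counts of shared peaks and of stretches over other genes are given, so these are not read as a trait of the 653 genes. The 653 genes had 599 distinct young replicate 1 peaks, and off mitochondrial DNA 51 of these peaks were each shared by 2 of the genes, 46 of the pairs on opposite strands. Examples are Sdha with Ccdc127, Atp6v1d with Eif2s1, Npc2 with Isca2, Desi1 with Xrcc6, Cbx5 with Hnrnpa1, Palb2 with Dctn5 and Sirt3 with Psmd13. At such promoters a peak cannot be assigned to 1 of the genes. An opposite-strand protein-coding TSS within 1000 bp of any of their TSSs was present at 99 of 646 genes (15.3%), against 10.5% of all protein-coding genes. Within 500 kb, 3 or more of the genes lay together in 16 stretches holding 55 genes. Among them were 4 genes on chromosome 6 from 42400238 to 42539020 (Tas2r143, Olfr458, Olfr457 and Olfr455), 3 Zfp genes on chromosome 17 from 21535539 to 21908092 (Zfp52, Zfp820 and Zfp995), and 3 keratin-associated genes on chromosome 16 from 88612279 to 89084091 (Krtap24-1, Krtap19-5 and Krtap6-3). On chromosome 10, Apon, Apof, Stat2 and Cdk2 lay from 128254150 to 128705003.

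Old peaks, absent from the windows by the rule, lay at varied distances outside them. No share over other genes is given for these distances, so they are not read as a trait of the 653 genes. Off mitochondrial DNA, the nearest peak of either old library lay 1502 to 92024 bp from a TSS with a median of 8152.5 bp. Of the 653 genes, 207 (31.7%) had an old peak between 1500 and 5000 bp from a TSS, 100 of these within 3000 bp, and the nearest old peak was overlapped by a young replicate 2 peak at 54 of the 207 (26.1%), as at Klf4, and by a young replicate 1 peak at 10 (4.83%). An old peak lay somewhere in the gene body of 390 genes (59.7%, 55.8 to 63.5%), against 64.3% of all protein-coding genes and 45.0% of genes free of old promoter peaks. Just inside the rule were Gemin2, with old peaks 1502 and 1586 bp from its TSS, and Rfc5 and Tmem88, each with 1 old peak at 1520 bp. Just outside were Sdr16c5, Olfr20 and Gm32717, with both young peaks and an old peak at 1497, 1474 and 1459 bp. At the window edge, the farther young peak of Gm47791 lay 1498 bp and that of Olfr15 1481 bp from a TSS, while those of H2-M10.5 and Slc17a7, at 1506 and 1520 bp, left them out. At the q threshold, Etfdh and 4930579G24Rik shared a young replicate 1 peak with −log10 q of 2.01 and a pileup of 9 fragments.

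Of the 653 genes, 46 met the rule under each of 8 other settings, which were q of at most 1e-05, a fold enrichment of at least 4, 4 lists of equal length, the shortened young replicate 2 list, windows of 500 and 3000 bp, overlapping young peaks, and no old peak within 5000 bp. The 8 are not separate checks. The 4 lists of equal length and the shortened young replicate 2 list kept the same 291 of the 653 genes. Any of the genes with no old peak within 5000 bp also passed the 3000 bp window. Of the 46, mt-Cytb, mt-Nd1 and mt-Nd6 lie on mitochondrial DNA, which Pol II does not transcribe. The others include Birc2, Zc3h15, BC005537, Mup17, Ankrd37, Lrp2bp, Raver2, Scaf8, Fcho2, Gmcl1 and P4ha1 of the leading genes, and Klf9, Tnfaip3, Msh3, Hsp90ab1, Fbxw11, Npc2, Kif1b, Mapk1ip1l and Rnf141 of the lists and families. Actb, a reference gene for broad expression chosen after its values were seen, was also among them, with 4.06 and 5.0, summits 68 and 53 bp downstream of the TSS and no old peak within 9085 bp. Klf4 met the rule under 1 of the 8, the fold enrichment of at least 4, and 11 genes under none.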

How the data were processed

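Pol II ChIP-seq peak lists of 4 libraries (2 old WT Cre, 2 young EC-K4KO) were used. According to the study's methods, reads were trimmed, aligned to mm10 with Bowtie2 and cleared of duplicates. Per the file headers, MACS 2.2.7.1 was run by the authors on 1 library at a time, at q of at most 0.01 and without a control library. The deposited tables give, for each peak, the pileup (a coverage signal in fragments), the fold enrichment (a ratio over local background), and −log10 of the p-value and q-value. None is scaled between libraries. The narrow peak and summit files repeat these rows and were not used.

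Peaks were placed on coding transcripts of the GENCODE M21 basic annotation (21840 genes by symbol, 41446 TSSs) with pandas 2.3.3 (Python 3.11.15, numpy 2.4.6), intervals came from scipy 1.17.1, and pysam 0.24.0 fetched the sequences. Shares carry 95% exact Clopper-Pearson intervals for counting error. No test was run, as the peaks chose the genes. The genes, lists, families and motifs were chosen with earlier results of these data known. Named were Klf4, the 10 genes with the highest smaller fold enrichment over all genes and over aligned genes, genes on the lists, the 3 leading genes of larger families, genes at the edges of the rule, and genes that lie together or share a promoter. The overlap rule was tested on simulated data. The alternatives were other thresholds, list lengths, windows, matching rules, annotations and left-out libraries. A few genes and lists are not reported here.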

Additional observations from a re-analysis of the deposited data

How the results depend on the processing

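No paired analysis was possible because counts and shares of genes chosen by their peaks come from no test, so that no block can be fitted. Against 653 genes, the rule gave 261 at q of at most 1e-05, 417 with lists of equal length, 291 with the young replicate 2 list shortened, 424 and 198 with young peaks overlapping by at least 1 bp and by 50%, and 1369 over all annotated genes. Leaving out 1 library gave from 887 genes (without young replicate 2) to 7356 (without young replicate 1), with 1038 and 1072 without old replicates 1 and 2. The share with overlapping young peaks (64.9%) was 70.1% with the shortened list, 78.7% and 51.9% with windows of 500 and 3000 bp, and 59.8% over all annotated genes. The share with a young replicate 1 summit within 500 bp (65.1%) was 69.8% with equal lists, 69.1% with the shortened list, 91.3% and 47.3% with windows of 500 and 3000 bp, 72.4% and 70.7% with overlaps of 1 bp and 50%, 57.5% over all annotated genes, and 60.9 to 71.9% with 1 library left out, where the 71.9%, without young replicate 1, counts young replicate 2 summits instead. The CpG-rich share (57.1%) was 61.7% at a fold enrichment of at least 4, 70.3% with equal lists, 72.2% with the shortened list, 65.0% and 50.6% with windows of 500 and 3000 bp, 65.3% and 63.6% with overlaps of 1 bp and 50%, 34.8% over all annotated genes, and 46.7 to 63.2% with 1 library left out. Of the 63 genes on the lists or leading by fold enrichment, 30 met the rule at q of at most 1e-05, 42 with lists of equal length and 51 with a window of 3000 bp, where the other 12 had an old peak. The cause of these shifts was not tested beyond what each setting fixes by its construction. Leaving out the mitochondrial genes and Gm10801, a setting chosen after seeing the data, gave 645 genes. With 2 libraries per group, no control library and pileups of 14 and 17 fragments at the median, absence of a peak means only that none was called at this depth.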
